A study of Mus musculus with 10 samples.

Results

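Rad50 and Xrcc6 are 2 genes of the machinery that handles broken DNA, and they are described here in splenocytes, the mixed cells of the mouse spleen. They were chosen by the names printed in the spot files. Rad50 is printed there as a DNA repair protein, and Xrcc6 as the 70-kDa subunit of ATP-dependent DNA helicase II, also called the lupus Ku autoantigen p70. They make up 2 of the 597 named genes of the membrane, and 4 of its 1194 gene spots, since each gene was spotted in duplicate. The pair was picked because earlier results of these data had Rad50 lower and Xrcc6 higher in the transgenic group. The group differences of both genes are therefore given as a description and without a test.

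When both strands of a chromosome break, cells rejoin the ends by homologous recombination or by non-homologous end joining. Rad50 is an ATPase that works with Mre11 and Nbs1 in a complex that holds and trims DNA ends and activates the kinase Atm. Xrcc6, or Ku70, pairs with Xrcc5, or Ku80, in a ring that slides onto free ends and starts end joining. Developing lymphocytes depend on end joining to repair the breaks that the Rag1 and Rag2 proteins make when antigen receptor genes are assembled.

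All mice were FVB animals killed at 6 weeks of age. Of the 10 samples, 7 came from mice carrying the transgene CD22DE12 and 3 from wild-type mice without it. CD22 is an inhibitory co-receptor of B cells. The labels used here name neither the promoter that drives the transgene nor the species it came from. Each sample was copied into 32P-labelled cDNA and hybridised to a nylon membrane of its own, but nothing in the labels says that each came from a separate mouse, so the spread between samples may be partly technical. Bulk RNA cannot tell fewer cells of a type from less RNA per cell.

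Each spot carries a code of 0 or 2 whose meaning is not stated in the sources used here. A gene is called above background on an array where 1 or both of its spots have the code 0, which is an inference from the levels, and 463 to 550 of the 597 genes met it on an array. Spots of code 0 lay at a median of 18.2 grey levels above their local background, and spots of code 2 at 2.89, but single spots of code 2 reached 49.7 on wild-type replicate 3, 35.5 on transgenic replicate 7 and 28.4 on transgenic replicate 6, so the code is no plain threshold on signal. The labels name no batch, but the file headers give a time of day for each array. A gap of over 1 hour between these times was taken to split 2 sittings, which is an inference that left out the calendar date. By this rule transgenic replicates 6 and 7 fell in a later sitting than the other 8 arrays. Their median gene spot lay 4.45 and 4.06 grey levels above background, against 13.8 to 18.7 elsewhere. No wild-type array belonged to that sitting. The 6 B cell markers on the membrane were above background on all 10 arrays. Cd22 itself differed by -0.24 (transgenic minus wild type, log2), but the probe's place in the gene is unknown and this is no check of the genotype.

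Both genes gave more signal than their local background in the spleen on every array. This held for all 40 readings, from 4 spots on 10 arrays, of which the dimmest lay 5.74 grey levels over its surroundings. All 40 also carried the code 0. This dimmest reading was the second Xrcc6 spot of transgenic replicate 7, one of the faint arrays, and its excess there was 3.86 times the SD of the local background. The smallest excess in such units was at the second Rad50 spot of transgenic replicate 1, at 1.58 times. Dividing cells of many types express both genes, and a membrane of mixed splenocytes does not show which cells the signal came from.

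Rad50 gave mean signals above background of 24.8, 40.9 and 25.3 grey levels on wild-type replicates 1, 2 and 3. On transgenic replicates 1 to 5 the same measure was 16.2, 25.9, 23.5, 25.6 and 23.6 grey levels. On the faint replicates 6 and 7 it was 9.40 and 10.8. Wild-type replicate 2 therefore stood well over all other arrays, and the remaining first-sitting arrays lay close together apart from a low transgenic replicate 1. Divided by the median gene spot of the array, Rad50 was 1.96 ± 0.37 (SD, n = 3) in wild type and 1.69 ± 0.54 (SD, n = 7) in transgenic arrays. In the 5 transgenic arrays of the first sitting this ratio was 1.42 ± 0.25 (SD, n = 5), and the highest of them, 1.71, lay under the wild-type mean. On the faint replicates 6 and 7 it was 2.11 and 2.66, both over the wild-type mean. Replicate 7 was also over the highest wild-type value of 2.38.

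Xrcc6 gave mean signals above background of 16.6, 23.2 and 18.4 grey levels on wild-type replicates 1, 2 and 3. On transgenic replicates 1 to 5 it was 28.7, 25.4, 33.9, 24.2 and 16.6 grey levels, and on replicates 6 and 7 it was 11.6 and 7.44. In these grey levels, which are not adjusted for the brightness of the array, 4 of 5 transgenic arrays of the first sitting were brighter than every wild-type array. Replicate 5 was as dim as the dimmest wild-type array. Divided by the array median, Xrcc6 was 1.26 ± 0.13 (SD, n = 3) in wild type and 1.76 ± 0.49 (SD, n = 7) in transgenic arrays, or 1.58 ± 0.38 (SD, n = 5) in the first sitting. By this ratio transgenic replicates 4 and 5, at 1.29 and 1.20, lay under the highest wild-type value of 1.35. The other transgenic arrays lay over it.

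**Figure D1:**
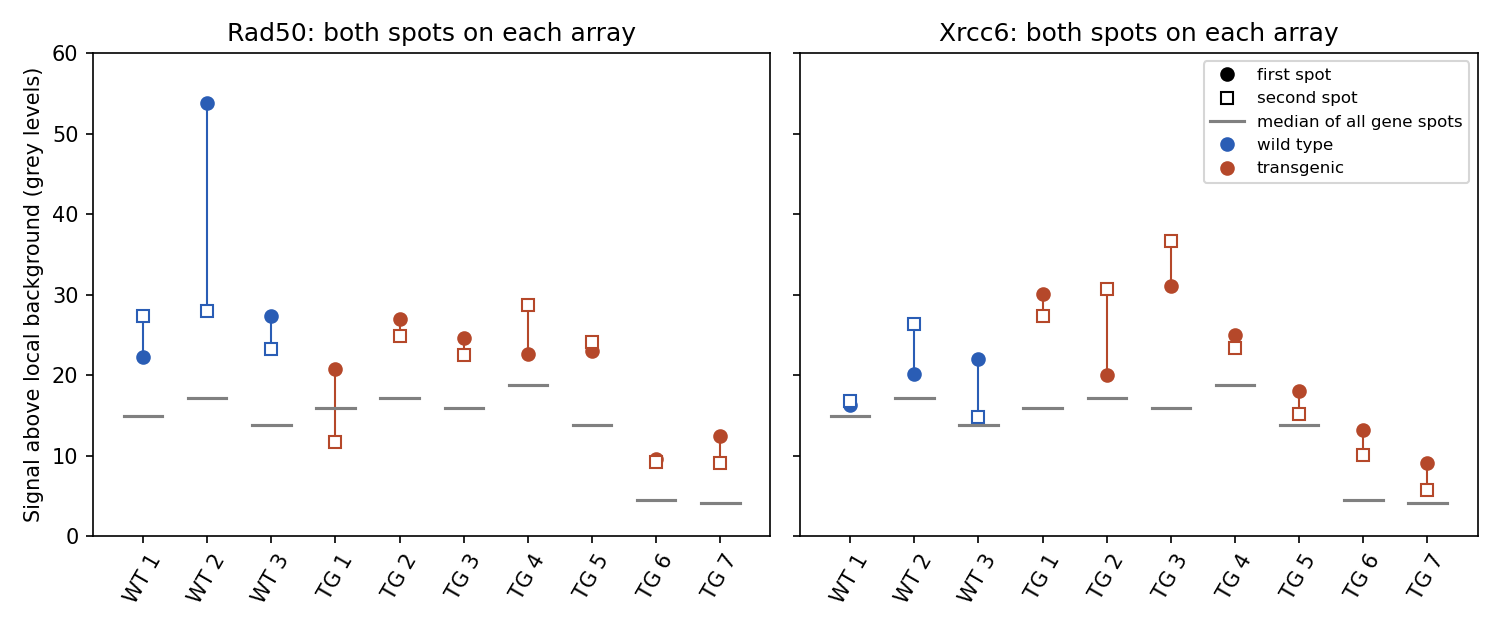
Signal above local background, in grey levels, of both spots of Rad50 (left) and Xrcc6 (right) on each of the 3 wild-type (WT) and 7 transgenic (TG) arrays. Filled circles are first spots, open squares second spots, vertical lines join the duplicates, and grey bars mark the median of all gene spots on the array; the first Rad50 spot of WT 2, at 53.8 grey levels, stands apart.

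The duplicate spots set how finely these levels can be read. On the normalized log2 scale, a single spot had an SD of 0.11 for Rad50 and 0.076 for Xrcc6 across the 10 arrays, estimated from the differences between duplicates. The median over all genes was 0.072, and 34 genes had a larger value than Rad50 while 252 had a larger value than Xrcc6. The high value of Rad50 rested on wild-type replicate 2. Without that array it was 0.070, beside a median of 0.071 over all genes, and 313 genes had a larger value.

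The widest gap between Rad50 duplicates was on a wild-type array. On wild-type replicate 2 the first Rad50 spot lay 53.8 grey levels above a local background of 67.0, and the second 27.9 above a background of 51.9. These duplicates differed by 0.41 on the log2 scale, while the Rad50 duplicates of the other 9 arrays differed by 0.017 to 0.18. On that array only 2 of the 597 genes, Rad50 among them, had duplicates as far apart. The Xrcc6 duplicates differed by 0.0078 to 0.19 on all 10 arrays.

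After background correction and quantile normalization, with 50 grey levels added to every signal, Rad50 stood at 6.16, 6.34 and 6.21 on wild-type replicates 1, 2 and 3. On transgenic replicates 1 to 7 it stood at 5.93, 6.13, 6.05, 6.08, 6.19, 6.17 and 6.16. On this scale Rad50 was under the wild-type mean in 7 of 7 transgenic samples and under the lowest wild-type array in 5, so the groups overlapped. By the ratio to the array median, replicates 6 and 7 lay over the wild-type mean. The means were 6.24 ± 0.09 (SD, n = 3) in wild type and 6.10 ± 0.09 (SD, n = 7) in transgenic samples, or -0.14 for transgenic minus wild type (limma standard error 0.059). The added 50 grey levels shrink every difference on this scale, and with no offset the same difference was -0.46 with a standard error of 0.27.

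The size of the Rad50 difference depended on that 1 bright spot. With it left out, the difference was -0.068 (standard error 0.053), and without the whole of wild-type replicate 2 it was -0.084. The first spots alone gave -0.19 and the second spots alone -0.088. The difference kept its negative sign in each of these readings, which share arrays and are not independent. It was -0.17 when the later sitting was dropped and the other 8 arrays were normalized by themselves.

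Xrcc6 stood at 5.98, 6.05 and 6.05 on wild-type replicates 1, 2 and 3. On transgenic replicates 1 to 7 it stood at 6.16, 6.10, 6.17, 6.06, 6.01, 6.26 and 6.07. Of the 7 transgenic arrays, 6 lay above the highest wild-type array and replicate 5 lay among the wild-type values, so these groups overlapped too. The means were 6.03 ± 0.04 (SD, n = 3) in wild type and 6.12 ± 0.08 (SD, n = 7) in transgenic samples, or 0.09 for transgenic minus wild type (limma standard error 0.050). First and second spots alone gave 0.093 and 0.094, and the first sitting alone 0.082. The value with no offset was 0.37 with a standard error of 0.23, and without background correction it was 0.046.

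Across the whole membrane limma called 0 of 597 genes (0%) at a Benjamini-Hochberg adjusted p under 0.05, and 43 genes (7.2%) lay under an unadjusted p of 0.05, 14 of them higher (2.35%) and 29 lower (4.86%) in transgenic samples. As a description, 27 genes (4.52%) were as far below wild type as Rad50 or further, and 60 genes (10.1%) were as far above as Xrcc6 or further. The groups were disjoint in 10 genes (1.68%), and Rad50 and Xrcc6 were not among them.

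**Figure D2:**
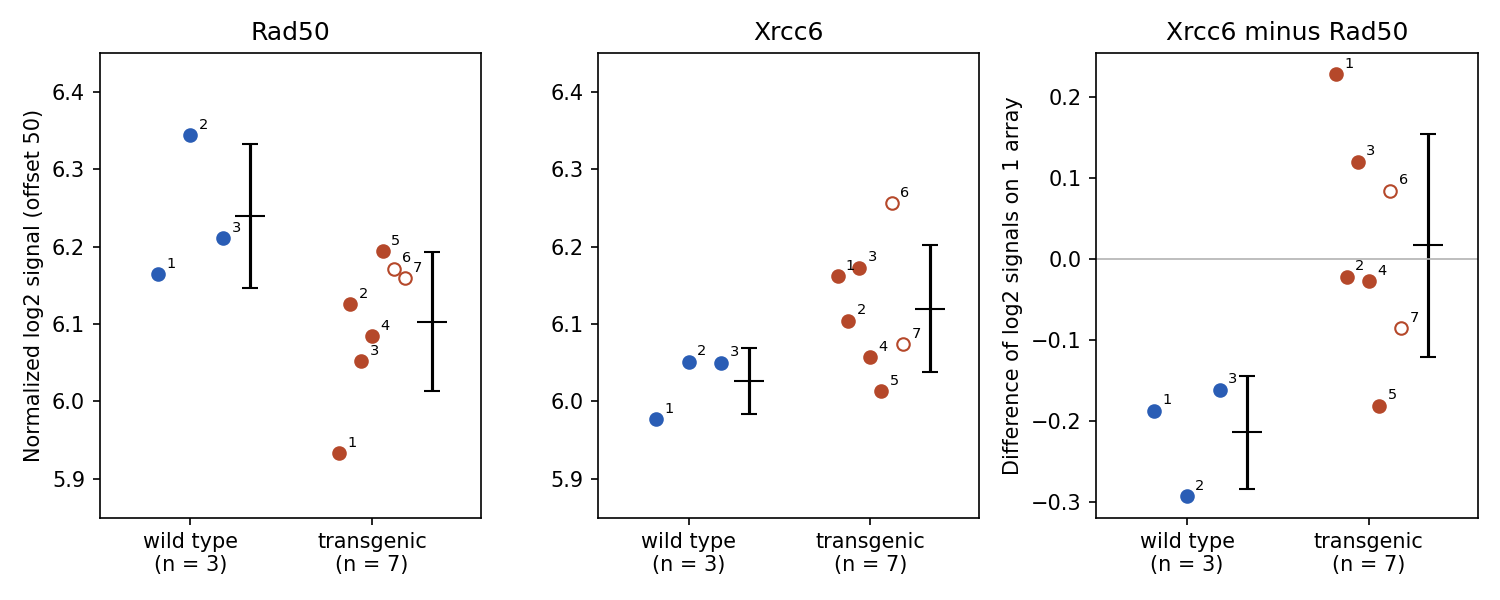
Normalized log2 signal of Rad50 (left) and Xrcc6 (middle), and their difference on the same array (right), in wild-type (blue) and transgenic (red) samples. Numbers are replicates, open circles are the arrays of the later sitting, and the black bars are group means ± SD; wild-type and transgenic points overlap in each panel.

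Both genes were also set against each other on the same array. With 50 grey levels added before the log, a change in the brightness of an array does not cancel fully in this difference. Xrcc6 minus Rad50 was -0.19, -0.29 and -0.16 on wild-type replicates 1, 2 and 3. On transgenic replicates 1 to 7 it was 0.23, -0.02, 0.12, -0.03, -0.18, 0.08 and -0.09. These values describe how the balance of 2 probes shifted, and say nothing of which transcript was more abundant. The group means were -0.21 ± 0.07 (SD, n = 3) and 0.02 ± 0.14 (SD, n = 7), which differed by 0.23. All 7 transgenic arrays exceeded the wild-type mean and 6 exceeded the highest wild-type array, with replicate 5 again among the wild-type values. This follows from the opposite differences for which the pair was chosen and adds no support to them.

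Covariation was examined within the 7 transgenic arrays, where the group difference plays no part. Rad50 and Xrcc6 had a Pearson r of -0.27 (exact permutation p = 0.562) and a Spearman rho of -0.32 (exact permutation p = 0.498), each two-sided. Without replicates 1 and 3, the arrays farthest from the median of Rad50, r was 0.13. With 1 array left out and the rest normalized anew, r ran from -0.80 to -0.016. The value of -0.016 came without replicate 5, which had the lowest transgenic Xrcc6 (exact permutation p = 0.985). Without replicate 6, which had the highest Xrcc6, r was -0.80 (exact permutation p = 0.0514). Without replicate 7, the other array of the later sitting, r was -0.21 (exact permutation p = 0.689). In the 5 transgenic arrays of the first sitting, normalized with all arrays, r was -0.80 (exact permutation p = 0.1) and rho was -0.80 (exact permutation p = 0.133). The part of the sitting, as against replicate 6 alone, in the pooled r of -0.27 was not tested. None of these values passed 0.05, and 5 arrays are too few to settle a relation.

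**Figure D3:**
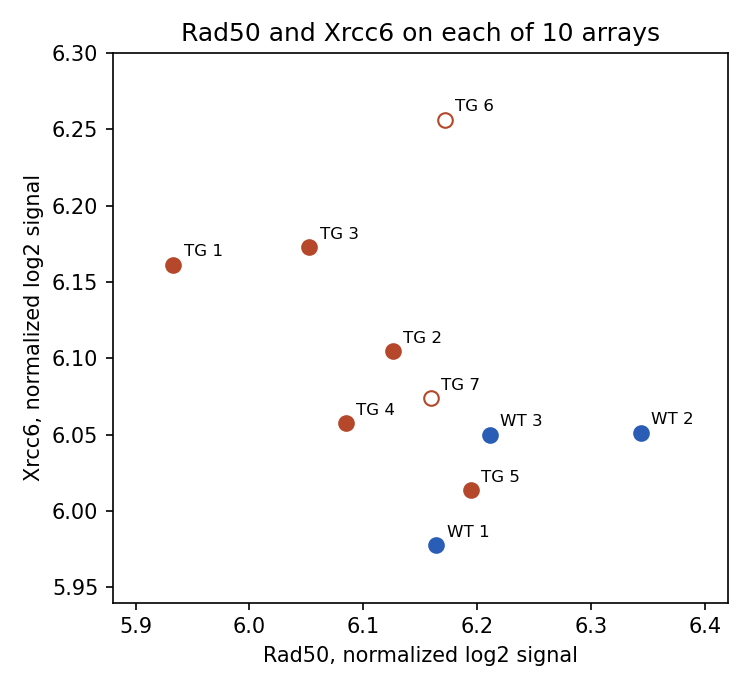
Normalized log2 signal of Xrcc6 against Rad50 on each of 10 arrays, with wild type (WT) in blue, transgenic (TG) in red and arrays of the later sitting open. The wild-type points lie to the lower right, TG 5 lies among them, and the 7 transgenic points have a Pearson r of -0.27.

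The same question was put to 6 further relations in the transgenic arrays, and the p-values were adjusted over all 7. Rad50 and Mre11a, its nuclease partner, had an r of -0.32 (exact permutation p = 0.487), and a rho of -0.21 (exact permutation p = 0.662). Xrcc6 and Xrcc5, its Ku partner, had an r of 0.034 (exact permutation p = 0.941), and a rho of -0.11 (exact permutation p = 0.84). Without the 2 arrays farthest from the median these became -0.59 and -0.42. A relation within either partner pair was not detectable with 7 arrays, and Xrcc5 was above background on only 5 of them.

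The duplicate spots gave the highest positive r, although in size the r of Rad50 with array brightness lay between them. The duplicate values were 0.60 for Rad50 (exact permutation p = 0.12, rho 0.46 with exact permutation p = 0.302) and 0.40 for Xrcc6 (exact permutation p = 0.394, rho 0.18 with exact permutation p = 0.701). Without the 2 farthest arrays they were 0.81 and 0.79. Against the median brightness of the array, r was -0.51 for Rad50 (exact permutation p = 0.227, rho -0.54 with exact permutation p = 0.236) and -0.33 for Xrcc6 (exact permutation p = 0.462, rho -0.14 with exact permutation p = 0.783). Without the faint replicates 6 and 7 these were -0.23 and 0.13. The adjusted permutation p was 0.656 or more for each r and 0.84 for each rho.

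The genes whose array-to-array pattern was most like each member were found by Pearson r over the 10 arrays, after each group's mean was removed, among 356 other genes above background on all arrays. For Rad50 they were the tyrosine phosphatase gene Ptpn11 (r = 0.81), the insulator protein gene Ctcf (0.80), the lysosomal protease gene Ctsd (0.71), the endothelial receptor kinase gene Tie1 (0.68) and the endothelin receptor gene Ednrb (0.67). The least alike were Dad1, a subunit of the oligosaccharide transferase (-0.86), and the Src-like adaptor gene Sla (-0.82). For Xrcc6, 4 of the 5 most alike were the small GTPase gene Rab2a (0.81), the microtubule end-binding gene Mapre1 (0.78), the adaptor gene Eps8 (0.77) and the glutathione transferase gene Gstm2 (0.74). The least alike were a gene printed as a photolyase and blue-light receptor homolog (-0.85) and the growth factor receptor gene Igf1r (-0.83). These are the extremes of 356 values over 10 arrays that share their normalization, and they are given as a description.

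By the same measure, Mre11a stood at -0.030 with Rad50, and 181 of 356 genes were more like Rad50 than it was. Atm, the kinase that the Rad50 complex activates, stood at 0.12, with 111 genes more alike. Xrcc5 stood at 0.064 with Xrcc6, with 149 genes more alike. It was above background on only 8 arrays, so it is not itself among the 356 and its pattern lies partly near the floor. Xrcc6 stood at -0.12 with Rad50, with 223 genes more alike. Mre11a and Xrcc5 thus lay near the middle of the range. In the transgenic arrays even the duplicate spots of Rad50 and of Xrcc6 had an r of only 0.60 and 0.40. These ranks therefore cannot show whether partners vary together.

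Of 38 genes of double-strand break repair and V(D)J recombination that were listed, 12 are on the membrane, Rad50 and Xrcc6 included. In transgenic samples 6 of the 12 were higher and 6 lower, with a median difference of 0.013 beside 0.0019 over all 597 genes, and 0 passed in either direction. The other 10 on the list were split 5 and 5, no one of these 10 differed by over 0.045 in size, and their smallest adjusted p was 0.819 by limma. Rad50 and Xrcc6 were the outermost members of the list, as they were chosen to be.

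Among the partners of Rad50, Mre11a stood at 6.12 ± 0.16 (SD, n = 3) in wild type and 6.11 ± 0.05 (SD, n = 7) in transgenic samples, a difference of -0.01 (adjusted p = 0.99 by limma). Atm differed by 0.03 with a standard error of 0.045 (adjusted p = 0.972 by limma). The Ku partner Xrcc5 stood at 5.80 ± 0.04 (SD, n = 3) and 5.80 ± 0.04 (SD, n = 7), and differed by -0.00044 with a standard error of 0.032 (adjusted p = 0.997 by limma). Xrcc5 was above background on 8 of 10 arrays, so that much of its signal lay near the floor of the assay.

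In the recombination branch, the strand annealing gene Rad52 differed by -0.03 and the meiotic recombinase gene Dmc1 by -0.04. The tumour suppressors Brca1 and Brca2, which act in homologous recombination, differed by 0.04 and 0.03. The recombinase genes Rag1 and Rag2, which cut antigen receptor genes in developing lymphocytes, each differed by 0.03. A second entry printed as recombination activating protein 1 (RAG1), RGA, was not counted in the list. RGA is in the RefSeq table a synonym of another gene, Slc50a1, so which transcript it reads is unclear. It stood at 6.99 ± 0.12 (SD, n = 3) in wild type and 6.89 ± 0.14 (SD, n = 7) in transgenic samples, and its difference of -0.10 (adjusted p = 0.947 by limma) was opposite in sign to that of the Rag1 entry and larger. Rag2 was above background on 5 of 10 arrays, and Dmc1 and Brca1 on 9. Rad21, a cohesin subunit printed on the membrane as a double-strand break repair protein, was not on the list and was added after its value was seen; it differed by 0.0058.

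**Figure D4:**
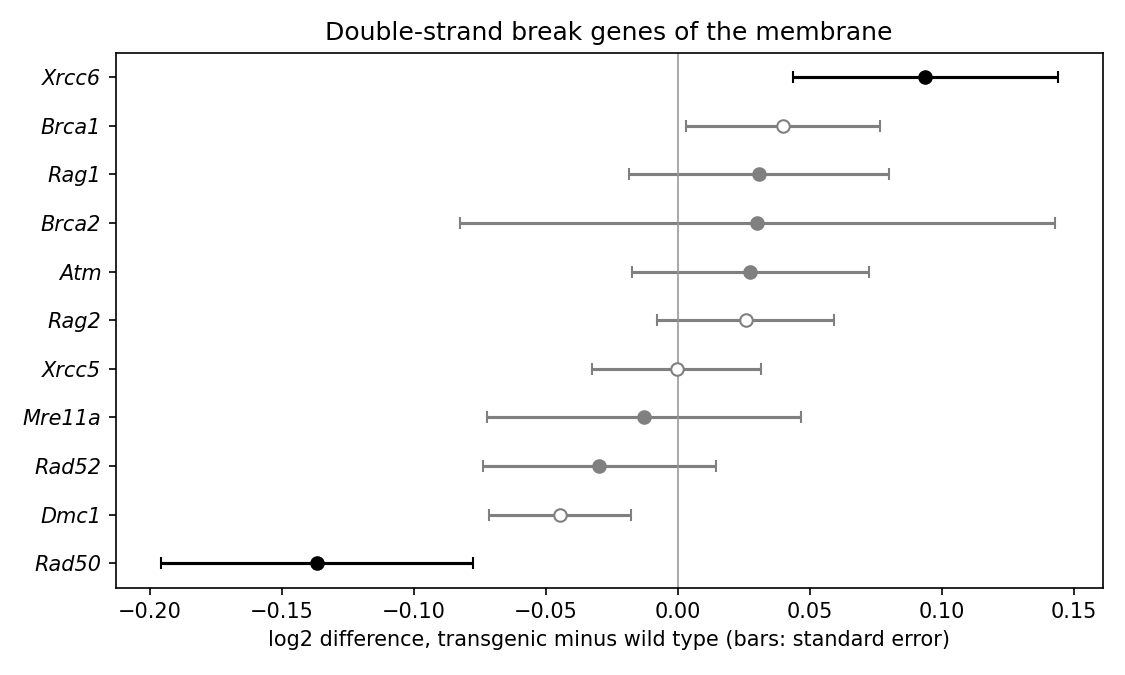
Log2 difference, transgenic minus wild type, of the double-strand break genes on the membrane that are reported by name, ordered by size, with the standard error of the limma fit as bars. Rad50 and Xrcc6 are black, other genes grey, and open symbols are genes above background on fewer than 10 arrays; the grey points lie within 0.045 of 0.

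In neighbouring pathways no gene passed the test across all genes. Over all 597 genes, 309 were higher and 288 lower in transgenic samples. Of 17 genes of other DNA repair routes on the membrane, 11 were higher and 6 lower, with a median of 0.018 and 0 called. Of 9 damage checkpoint genes, 3 were higher and 6 lower, with a median of -0.0073 and 0 called. Of 11 proliferation genes, 7 were higher and 4 lower, with a median of 0.029 and 0 called.

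Spleen cell markers were read on the same arrays, and none passed the test. All 6 B cell markers (Cd22, Cd40, Pax5, Pou2af1, Blk and Ebf1) were lower in transgenic samples, with a median of -0.11 and 0 called, and their mean level ran from 6.33 to 6.54 on transgenic and from 6.49 to 6.68 on wild-type arrays. Of 5 myeloid markers 4 were higher, with a median of 0.11 and 0 called, and their mean level ran from 6.52 to 6.75 against 6.46 to 6.58. Of 9 T cell markers 6 were lower (median -0.036), of 4 erythroid and megakaryocyte markers 3 were higher (median 0.085), and of 7 stromal and endothelial markers 6 were lower (median -0.036), with 0 called in each. The part of these markers in the Rad50 and Xrcc6 differences was not tested.

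**Figure D5:**
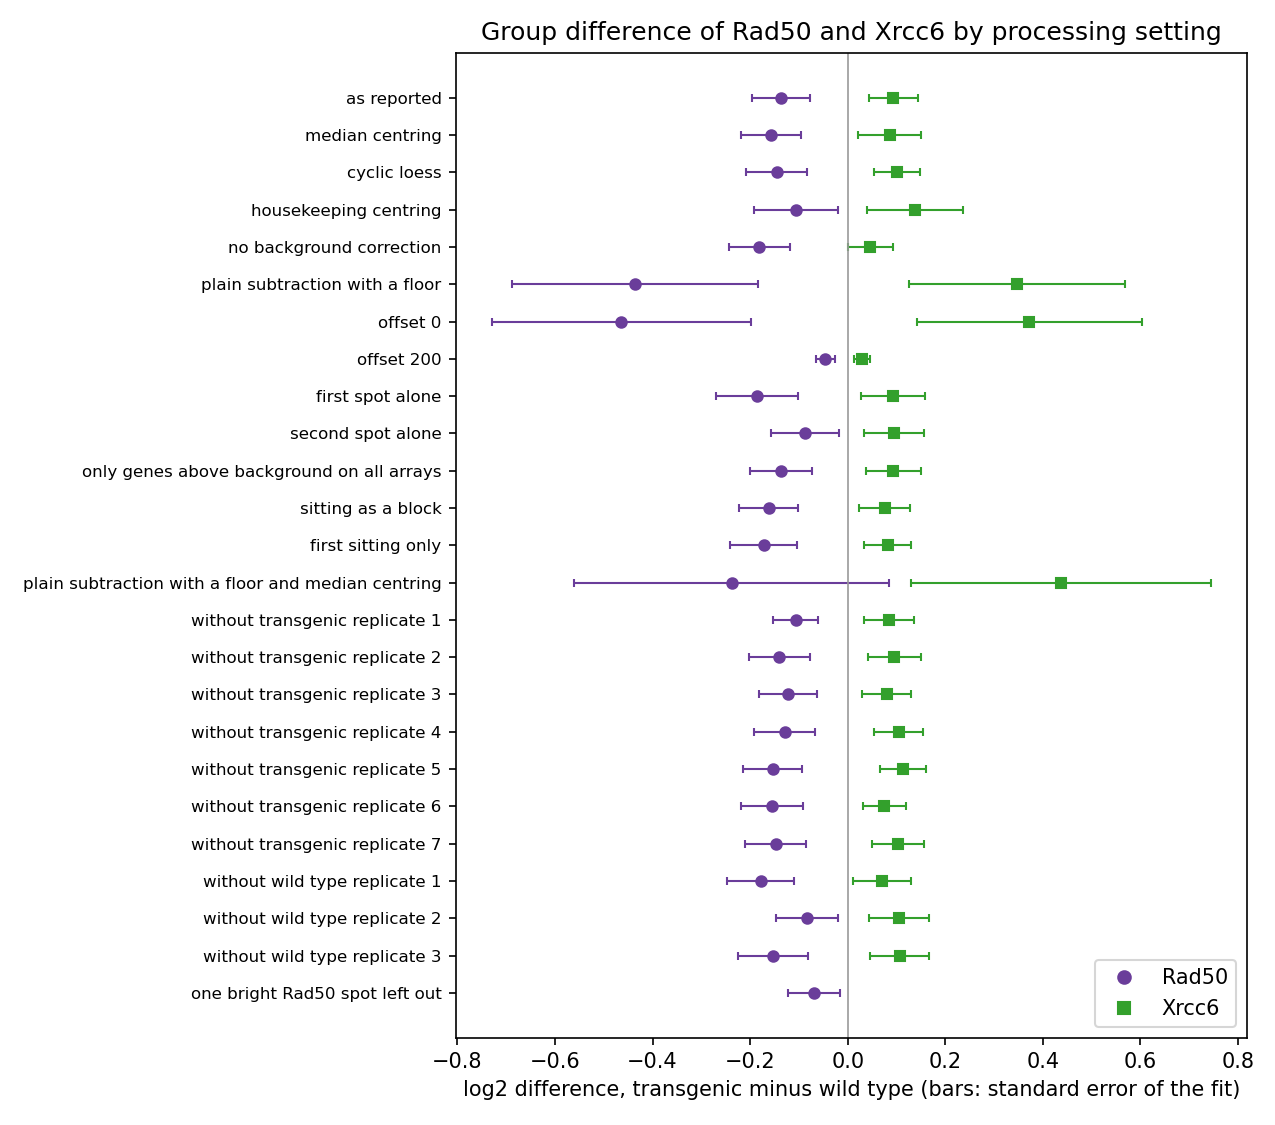
Log2 difference, transgenic minus wild type, of Rad50 (purple circles) and Xrcc6 (green squares) as reported and under each other processing setting, with the standard error of the fit as bars. Every Rad50 value is below 0 and every Xrcc6 value above 0, from -0.46 to -0.046 and from 0.030 to 0.44. The settings re-read the same arrays, so the shared signs add no support. The setting without 1 bright spot was run for Rad50 alone.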

How the data were processed

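The deposited spot files hold intensity values that are not normalized. Per the file headers, the authors inverted the image, segmented it automatically and took mean grey levels for spots and their surroundings. The authors also deposited a table of processed values, taken as log2 from their range, whose 588 entries have no gene names, so it served only for counts of genes. Of the 597 printed names, 94 were matched by hand to symbols, all found in the RefSeq table.

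Background was corrected with normexp and an offset of 50 over all spots, the 126 unnamed ones included. Gene spots were quantile normalized and duplicates averaged as log2 values. No dim gene was filtered out. Transgenic and wild-type samples were compared by limma 3.58.1 in R 4.3.3, using lmFit and eBayes with Benjamini-Hochberg adjustment over 597 genes. Correlations used exact two-sided permutation of 7 arrays in Python 3.11.15, and figures matplotlib 3.10.9. The steps were tested on simulated data, in 2 versions. The first, with many genes changed by a large factor, recovered them but also called most unchanged genes. A second version, added after that outcome, changed fewer genes and used another noise model, while the procedure itself was left as it was. It recovered every changed gene, which bears only on changes of the size simulated. It made no call where nothing was changed, but its calls still held more unchanged genes than the threshold allows. The cause was not tested. The procedure is thus not shown to control false calls when many or fewer genes change, and no call reported here rests on it, since none was made.

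The members, gene lists, tests and alternatives were chosen with earlier results of these data known. The genes named are the members, the listed double-strand break genes, and the 5 most and 2 least alike in pattern, with marker genes by list. In all, 2 of these genes are not reported here by name, though counts include them. The correlations with partner genes were added after seeing the files. The number of arrays limits the precision.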

Additional observations from a re-analysis of the deposited data

How the results depend on the processing

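The pair was chosen by the signs of its group differences, and every alternative re-read the same arrays, so unchanged signs add no support. Rad50 with subtraction and median centring (-0.24, standard error 0.32) and Xrcc6 without background correction (0.046, standard error 0.047) did not exceed their standard errors. The other values exceeded theirs. As a description, the differences of Rad50 and Xrcc6 kept their signs in all 24 and 23 alternatives run. With plain background subtraction they were -0.44 and 0.35, with no offset -0.46 and 0.37, and with subtraction and median centring together, chosen after seeing the data, -0.24 and 0.44; their difference on an array was then 0.78, 0.84 and 0.67, and 0.076 with an offset of 200. The offset sets the scale of these values by construction; otherwise the cause was not tested. Leaving out 1 array gave -0.18 to -0.084 for Rad50, 0.070 to 0.11 for Xrcc6 and 0.19 to 0.27 for their difference on an array. The omission of the bright Rad50 spot was also chosen after seeing the data.

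The median of the double-strand break list was 0.070 with housekeeping centring, which moved the median of all genes to 0.065, and 0.16 with subtraction and median centring. It turned to -0.00063 on first spots alone and ran from -0.014 to 0.016 leaving out 1 array; it turned negative without transgenic replicate 3 and without wild-type replicate 1. The correlation of Rad50 with Xrcc6 turned to 0.41 with housekeeping centring (exact permutation p = 0.352), to 0.046 on first spots alone (exact permutation p = 0.93) and to 0.24 with subtraction and median centring (exact permutation p = 0.612), and ran from -0.80 to -0.016 leaving out 1 array. In the first sitting alone, normalized anew, it was -0.79 (n = 5, exact permutation p = 0.1). No gene was called in any of the 24 alternatives, the authors' values included, while genes under an unadjusted p of 0.05 numbered 24 to 53, with 24 under housekeeping centring against 43. The authors' table could not be tied to single genes. No paired analysis was possible because the labels give the groups no shared replicate numbers.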
